A study of Mus musculus with 14 samples.

Results

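The 38 genes described here encode the machinery of autophagy and mitophagy, measured as mRNA in mouse oocytes with and without Clpx. They were taken by gene symbol from a list of known components and kept only if present in both deposited count tables, which share 16417 genes. Their presence in both is thus part of how they were chosen, and not a result. By role they comprised 5 genes of the ULK1 initiation complex, 5 of the class III PI3-kinase complex, 5 effectors of its lipid product and of lipid transfer, 7 conjugation genes, 5 ATG8 genes, 4 cargo receptors, 4 mitophagy genes and 3 lysosomal genes. The study compared oocytes of Clpx fl/fl mice, labelled WT, with those of Clpx fl/fl; Zp3-Cre mice, labelled CKO, at the germinal vesicle (GV) stage and after ovulation. The genotype field gives Clpx fl/fl for all libraries, although the titles of the ovulated WT libraries are spelled Clpxfl/f. By that field both genotypes carry the floxed allele, and only CKO carries the transgene, whose zona pellucida promoter is active in growing oocytes. Each GV genotype had 4 libraries and each ovulated genotype had 3. The labels call the samples single-cell samples and do not give the age of the mice, the hormone treatment, the number of animals, or whether replicates came from separate animals, so the p-values measure only the spread between these samples, which may be technical.

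In autophagy, part of the cytoplasm is enclosed by a growing double membrane and delivered to the lysosome. The ULK1 kinase complex starts the process, the class III PI3-kinase marks the site with the lipid PI3P, WIPI proteins read that lipid, and ATG2 and ATG9 supply membrane lipid. Conjugation enzymes then attach ATG8 proteins, the LC3 and GABARAP families, to the membrane, and cargo receptors tie cargo to them. In mitophagy the cargo is the mitochondrion, recognised through the kinase PINK1 or through receptors of the outer membrane such as BNIP3, NIX (Bnip3l) and FUNDC1. CLPX is the unfoldase of a protease in the mitochondrial matrix. A GV oocyte is arrested in meiotic prophase with its nucleus intact. After it resumes meiosis, transcription is largely silent, and stored mRNAs are controlled by decay and by changes of the poly(A) tail.

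Total counts per library were between 25086506 and 28471453. Clpx, the targeted gene, had 44.3 ± 9.21 CPM (counts per 1000000 of the scaled library total; SD, n = 4) in GV WT and 1.1 ± 0.358 CPM (n = 4) in GV CKO. In ovulated oocytes it had 18.2 ± 1.07 CPM (n = 3) in WT and 0.437 ± 0.155 CPM (n = 3) in CKO, so every library matched its label. The 12 oocyte markers, in CPM of the unscaled total, summed to 23648 to 35468 CPM in the 8 GV libraries. In the 6 ovulated libraries they summed to 11002 to 14721 CPM on that scale. CPM are relative to each library, so a change in the total mRNA of an oocyte cannot be seen. The cDNA method starts from the poly(A) tail, so transcript number and tail length cannot be told apart.

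Because the poly(A) tail bears on what is measured here, the ends of the members' transcripts are shown first. The cytoplasmic polyadenylation element, a U-rich motif bound by CPEB proteins, was searched as TTTTAT or TTTTAAT in the last 100 bases of 1 GENCODE transcript per gene, on the transcript strand only, with letters written as DNA. The polyadenylation signal was searched as AATAAA or ATTAAA in the last 40 bases. The element was found in 5 of the 36 members that were tested (13.9 percent). Of all tested genes with an annotated 3′ end, 19.8 percent had it. In the windows of 30 bases below, on GRCm38 (mm10), capitals mark the element nearest the end and the polyadenylation signal, where present in the window. The first 3 belong to members that rose from the GV to the ovulated stage in WT and carry the element.
Atg2b: gggaatgAATAAAgtatTTTTATttaaagg
Fundc1: aattttagtttcTTTTATtctcattagtgc
Atg16l1: ccagggcacatcTTTTATttatttaattat
The window of Atg2b lies on the minus strand at chr12:105616139-105616168, that of Fundc1 on the minus strand at chrX:17556606-17556635 and that of Atg16l1 on the plus strand at chr1:87792338-87792367. In Atg2b the element begins 16 bases before the end of the transcript, downstream of the polyadenylation signal. In Fundc1 and Atg16l1 it begins 60 and 79 bases before the end. Both of these also have 1 polyadenylation signal in the last 40 bases, outside the window shown.

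The next 3 belong to members that fell in WT. Map1lc3b is the single falling member with the element, and Map1lc3a and Atg13 fell furthest and have the polyadenylation signal alone. Map1lc3b has 2 matches to the element, of which the one nearest the end is marked.
Map1lc3b: ttaatTTTTATtttccgtacATTAAAttta
Map1lc3a: ctctgcagaaagAATAAAgactgctcaggc
Atg13: caagagatttccAATAAAaagttttctgta
They lie at chr8:121598716-121598745 and chr2:155278034-155278063 on the plus strand, and at chr2:91674625-91674654 on the minus strand. Ulk1 and Atg3, shown as members that rose without the element, end as follows, at chr5:110784490-110784519 on the minus strand and chr16:45188505-45188534 on the plus strand.
Ulk1: tcagtttaagaaAATAAAaattggaattat
Atg3: atatccctcttaATTAAAaacttttgaaaa
These letters describe annotated ends. For Atg2b and Fundc1, the RefSeq gene extends beyond the end shown, to position 105613539 on chromosome 12 and 17519967 on chromosome X. Whether the oocyte uses the ends shown was not measured, and a match is not evidence of binding.

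Levels were compared between genes by FPKM, which divides by gene length. The 2 stages were deposited as separate FPKM tables, so levels are set side by side only within a stage. In GV WT, Atg5 stood alone at the top with 243 to 281 FPKM in its 4 libraries. ATG5 is the protein that ATG12 is joined to. Lamp1, a lysosomal membrane glycoprotein, followed at 89.2 to 208 FPKM and overlapped Atg12, the ubiquitin-like partner of ATG5, at 85.4 to 112 FPKM. Bnip3l had 72.2 to 91.4 FPKM and the cargo receptor Tax1bp1 71.1 to 72.7 FPKM, and their ranges also overlapped. Gabarapl2, the ATG8 gene with the highest level, had 45.3 to 58.7 FPKM.

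At the low end, Tfeb, the transcription factor of lysosomal genes, was counted at most 1.04 times in any library and was at 0 in the 4 GV CKO libraries. All its values are under the 3 counts that a count of 0 allows, which is 0.105 to 0.12 CPM of the unscaled total, so no fold was taken. Gabarapl1 had 2, 2, 3 and 3 counts in GV WT, 3, 1, 2 and 1 in GV CKO, 1, 0 and 11 in ovulated WT and 1, 5 and 0 in ovulated CKO. Its counts overlapped in all groups. Neither gene passed the filter on low counts, so 36 of the 38 members were tested. These limits cover counting error only.

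Pink1, the kinase that marks damaged mitochondria, was low but passed the filter. It was counted 8 to 27 times in the GV libraries. Ovulated WT replicate 1 had 0 counts, ovulated CKO replicate 3 had 2, and the other ovulated libraries had 10 to 21. It had 0.625, 0.341, 0.625 and 0.452 CPM in GV WT and 1.14, 0.495, 0.331 and 1.05 CPM in GV CKO. In ovulated oocytes it had 0, 0.613 and 0.676 CPM in WT and 0.31, 0.384 and 0.0673 CPM in CKO. The 4 groups overlapped, and Pink1 had the widest interval of any member in each of the 5 comparisons made.

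**Figure D1:**
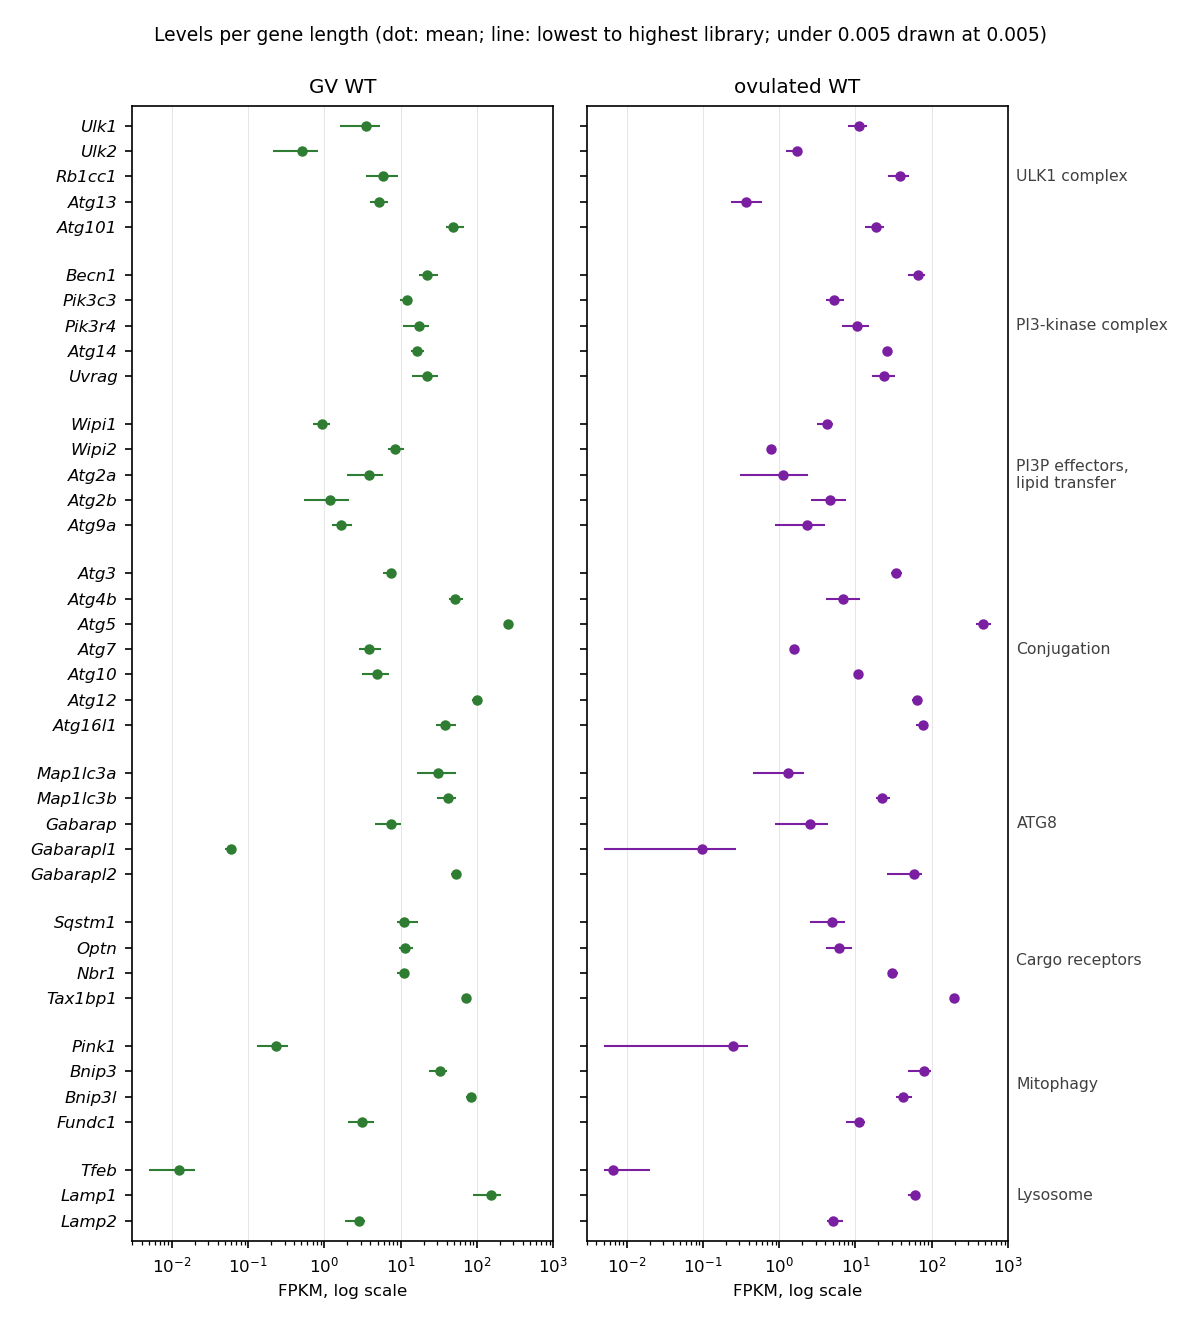
FPKM of the 38 genes on a log axis in GV WT (left, 4 libraries) and ovulated WT (right, 3 libraries), by role, with dots for means, lines from the lowest to the highest library, and values under 0.005 drawn at 0.005. Atg5 is highest at both stages, at a mean of 258 FPKM in GV and 465 FPKM in ovulated oocytes, and Tfeb, Gabarapl1 and Pink1 are lowest.

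In ovulated WT the order differed. Atg5 was again highest, at 380 to 598 FPKM, and Tax1bp1 was next at 187 to 210 FPKM. Bnip3, Atg16l1, Becn1, Atg12, Lamp1 and Gabarapl2 followed at means from 58.1 to 79.5 FPKM with ranges that overlapped. Rb1cc1 ranked 24 of the 38 genes in GV WT and 10 in ovulated WT, whereas Map1lc3a ranked 12 and then 32. Ranks within separately scaled tables show no size of change. That was tested on the counts.

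The first comparison asked which of these mRNAs differed between ovulated and GV oocytes without deletion of Clpx. In WT, 30 of the 36 members tested passed an adjusted p of 0.05 in edgeR's quasi-likelihood test with Benjamini-Hochberg adjustment over 13158 genes. Of these, 14 were higher and 16 lower in ovulated oocytes. Among all genes tested, 29.7 percent were higher, 34 percent lower and 63.7 percent changed in either direction, against 83.3 percent of the members. The median log2 fold change was -0.23 for the members and -0.08 for all genes. The members therefore did not move one way as a list. Stage coincides with separate deposited tables, so stage and any difference in the handling of those libraries cannot be told apart.

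Within the ULK1 complex the subunits split, with 3 of 5 higher and 2 lower. Rb1cc1, which encodes the scaffold FIP200 (chromosome 1, 6214634 to 6276375), had 32.8, 43.5, 55 and 31.6 CPM in GV WT and 237, 238 and 147 CPM in ovulated WT. Every ovulated library lay above every GV library. Its log2 fold change of 2.35 (standard error 0.29, edgeR adjusted p = 5.95e-06), a 5.09-fold rise, was the largest rise of the 36 members in WT. Ulk1, the initiating kinase (chromosome 5, 110784489 to 110810120), had 20.5, 12.3, 17.9 and 9.19 CPM in GV WT and 43.2, 43.7 and 29.1 CPM in ovulated WT, again without overlap. It rose by 1.37 on the log2 scale (SE 0.29, edgeR adjusted p = 0.000565). Its paralog Ulk2 rose by 1.43 from a lower level of 1.61 to 4.05 CPM.

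Atg13, the adaptor that links the kinase to the scaffold (chromosome 2, 91674612 to 91710597), went the other way. It had 21.3, 15.8, 17.7 and 19.2 CPM in GV WT and 0.886, 0.554 and 1.72 CPM in ovulated WT, a 17.6-fold fall (-4.14 on the log2 scale, SE 0.44, edgeR adjusted p = 1.97e-06). The ovulated libraries all lay far below the GV libraries. Atg101, which stabilises ATG13 in the complex, had 63.2, 49.8, 35 and 56.5 CPM in GV WT and 12.8, 14.9 and 20.9 CPM in ovulated WT. The groups did not overlap, and its log2 fold change was -1.66 (SE 0.35, edgeR adjusted p = 0.000567).

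The class III PI3-kinase complex had 1 of 5 members higher, 2 lower and 2 that did not pass. Becn1, which encodes the regulatory subunit Beclin 1, had 50, 35.8, 28.9 and 47.3 CPM in GV WT and 143, 62.2 and 111 CPM in ovulated WT. All 3 ovulated libraries were above the GV range, and it rose by 1.38 on the log2 scale (SE 0.31, edgeR adjusted p = 0.000907). The catalytic subunit Pik3c3 (VPS34) fell by 1.49 on the log2 scale, from 36.5 to 41.3 CPM down to 12.3 to 15.5 CPM. The regulatory kinase-like subunit Pik3r4 fell by 1.04 and lost its call under scaling to total counts (edgeR adjusted p = 0.103). Atg14, the subunit specific to autophagosome formation, had a log2 fold change of 0.32 and did not pass.

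Uvrag, the subunit of the late endosomal form of the complex, had the highest mean FPKM of this role in GV WT, 22.2, beside 21.9 for Becn1, and their ranges overlapped almost wholly. It had 93.1, 53.8, 69.4 and 83.8 CPM in GV WT, 72.7, 67.2, 51.6 and 93.1 CPM in GV CKO, 51.4, 78.4 and 59.2 CPM in ovulated WT and 69.3, 87.5 and 36.7 CPM in ovulated CKO. All 4 groups overlapped, and its stage change of -0.25 in WT (95 percent interval -0.88 to 0.38) did not pass.

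Among the PI3P effectors and lipid transfer genes, 2 of 5 rose and 2 fell, and paralogs parted. Wipi2, which recruits the ATG16L1 complex to PI3P (chromosome 5, 142629533 to 142669672), had 38, 34.1, 25.5 and 34.5 CPM in GV WT and 3.33, 2.01 and 2.26 CPM in ovulated WT. The groups lay far apart, with a 13-fold fall (log2 fold change -3.70, SE 0.37, edgeR adjusted p = 1.25e-06). Wipi1, its paralog, rose by 1.87 on the log2 scale from a low level, 1.35 to 1.7 CPM in GV WT against 4.33 to 7.05 CPM in ovulated WT.

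The lipid transfer paralogs Atg2a and Atg2b also moved in opposite directions. Atg2b had 9.08, 8.39, 14.8 and 6.63 CPM in GV WT and 21.1, 31.9 and 14.6 CPM in ovulated WT. The lowest ovulated library lay just under the highest GV library, and the rise was 1.21 on the log2 scale (SE 0.33, edgeR adjusted p = 0.00443). Atg2a had 14.9, 12.9, 18.6 and 10.3 CPM in GV WT and 1.52, 7.7 and 3.55 CPM in ovulated WT, without overlap. Its fall of -1.73 (SE 0.56, edgeR adjusted p = 0.0128) did not pass under scaling to total counts (adjusted p = 0.0775) or without ovulated WT replicate 1 (0.0666) or replicate 3 (0.0543). Without ovulated WT replicate 2 it was larger, at -2.53 (edgeR adjusted p = 0.00264). Atg9a, the lipid scramblase of the seed vesicles, had a log2 fold change of 0.18 and did not pass.

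Of the 7 conjugation genes, 3 rose and 3 fell. Atg3, the E2-like enzyme that attaches ATG8 proteins to lipid (chromosome 16, 45158829 to 45188538), had 14.2, 12.3, 11.7 and 18.8 CPM in GV WT and 50.2, 54 and 48.8 CPM in ovulated WT. The ovulated libraries were close together and all above the GV libraries, and Atg3 rose by 1.84 on the log2 scale (SE 0.27, edgeR adjusted p = 2.39e-05). Atg4b, the protease that primes ATG8 proteins and removes them from the membrane (chromosome 1, 93754905 to 93789606), had 180, 157, 135 and 172 CPM in GV WT and 14.1, 9.01 and 29.3 CPM in ovulated WT. It fell 9.23-fold without overlap (log2 fold change -3.21, SE 0.41, edgeR adjusted p = 8.24e-06). The log2 fold change was -2.93 without ovulated WT replicate 2 and -3.80 without ovulated WT replicate 3.

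Atg16l1, the partner that places the ATG12-ATG5 conjugate on the membrane, had 140, 100, 106 and 118 CPM in GV WT and 222, 178 and 154 CPM in ovulated WT. The groups did not overlap, but the rise of 0.67 on the log2 scale (SE 0.27, edgeR adjusted p = 0.041) lost its call in 5 of the leave-one-out fits, those without GV WT replicate 2, 3 or 4 or without ovulated WT replicate 1 or 2 (adjusted p from 0.0553 to 0.154). Atg10, the E2-like enzyme for ATG12, rose by 0.91. Atg7, the E1-like enzyme for both conjugation routes, fell by 1.26 on the log2 scale and Atg12 fell by 1.02.

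Atg5 had 513, 568, 482 and 658 CPM in GV WT, 523, 679, 596 and 764 CPM in GV CKO, 600, 537 and 718 CPM in ovulated WT and 471, 553 and 572 CPM in ovulated CKO. These ranges overlapped, and its log2 fold change between stages in WT, 0.15 (95 percent interval -0.33 to 0.64), did not pass. The member with the highest level in this role was thus the single one of its 7 genes with no stage call in WT.

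**Figure D2:**
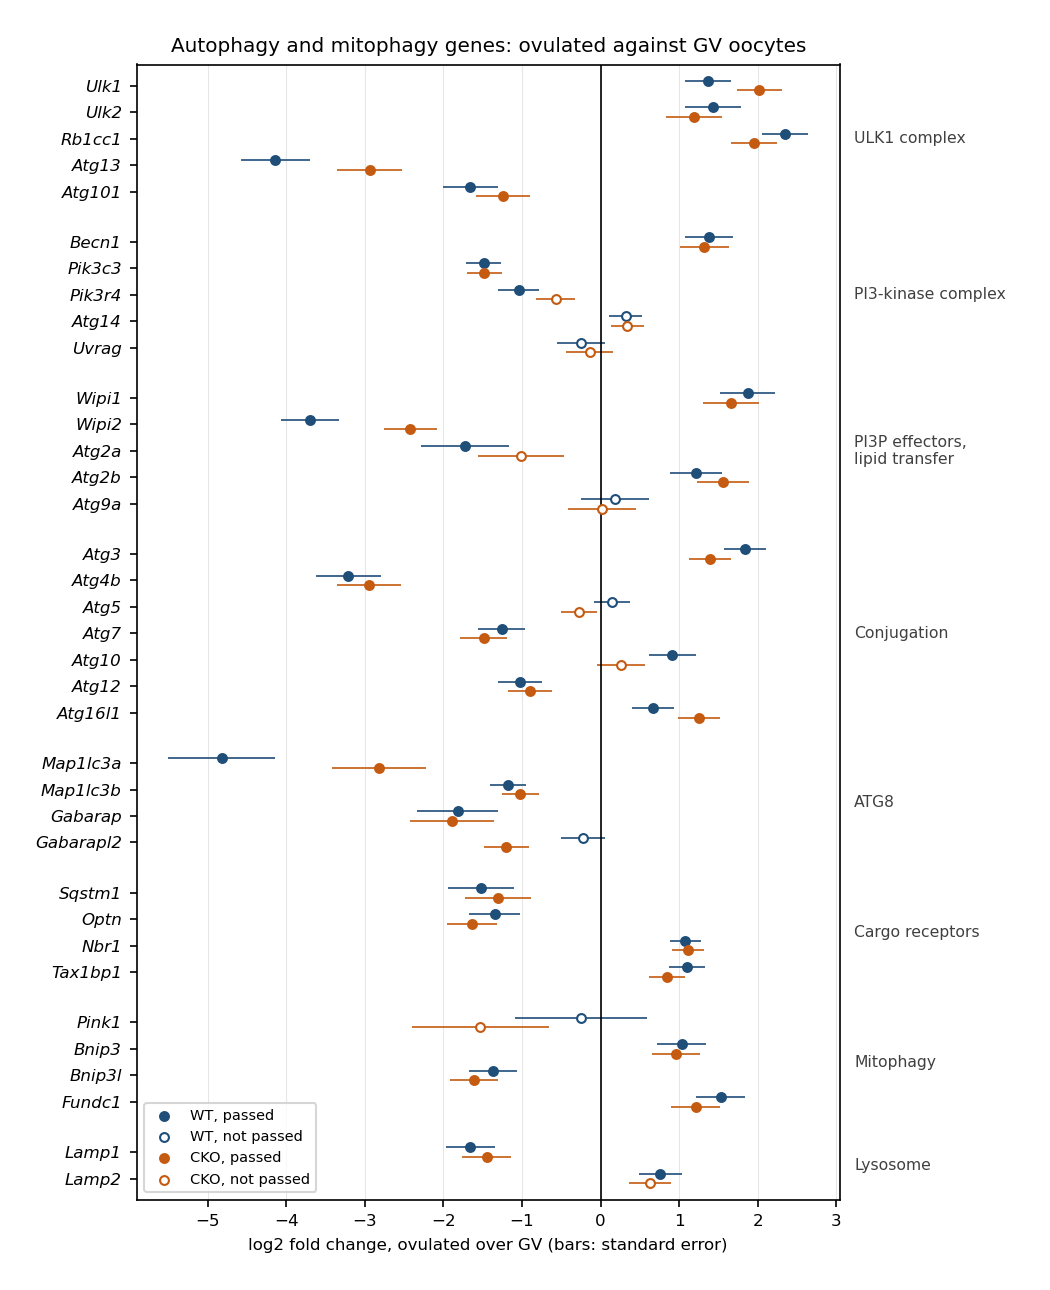
Log2 fold change of ovulated over GV oocytes for the 36 members tested, by role, in WT (blue, 3 against 4 libraries) and CKO (orange, 3 against 4 libraries), with bars for the standard error, filled points for members that passed and open points for those that did not. Points lie on both sides of 0 in most roles, from 2.35 for Rb1cc1 to -4.82 for Map1lc3a in WT, and the 4 ATG8 genes all lie below 0.

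The ATG8 genes were the role in which no member rose: 3 of the 4 tested were lower in ovulated WT and the other did not pass. Map1lc3a, which encodes LC3A (chromosome 2, 155276364 to 155278073), had 39.1, 15.9, 23 and 25.1 CPM in GV WT and 0.354, 0.817 and 1.55 CPM in ovulated WT. The highest ovulated library was far under the lowest GV library. Its 28.2-fold fall (log2 fold change -4.82, SE 0.68, edgeR adjusted p = 1.76e-05) was the largest of the 36 members in WT. The log2 fold change was -4.44 without ovulated WT replicate 1 and -5.41 without ovulated WT replicate 3.

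Map1lc3b, which encodes the commonly used autophagosome marker LC3B, had 107, 88.8, 105 and 91.9 CPM in GV WT and 43.5, 30.9 and 55.5 CPM in ovulated WT. It fell by 1.18 on the log2 scale (SE 0.23, edgeR adjusted p = 0.000308), without overlap. Gabarap had 6.22, 7.84, 7.83 and 5.58 CPM in GV WT and 0.744, 1.63 and 3.45 CPM in ovulated WT. It too was lower in every ovulated library, by a log2 fold change of -1.82 (standard error 0.52, edgeR adjusted p = 0.00627).

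Gabarapl2, which encodes GATE-16, had 36.6, 50.4, 38.4 and 46.3 CPM in GV WT and 18.8, 41.1 and 50.8 CPM in ovulated WT. Only ovulated WT replicate 1 lay below the GV range, and the change of -0.22 (95 percent interval -0.81 to 0.37) did not pass. How reads shared between ATG8 genes and their processed copies were assigned is not given in the sources used here. Some 14.4 to 16.3 percent of the count values of a library were fractional.

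The 4 cargo receptors split evenly, 2 higher and 2 lower. Tax1bp1, a receptor for ubiquitin-tagged cargo, had 204, 264, 196 and 299 CPM in GV WT, 235, 262, 239 and 269 CPM in GV CKO, 617, 420 and 510 CPM in ovulated WT and 441, 401 and 516 CPM in ovulated CKO. Both ovulated groups lay above both GV groups. In WT it rose by 1.10 on the log2 scale (SE 0.23, edgeR adjusted p = 0.000559). Nbr1, a related receptor, rose by 1.08.

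Optn, which encodes optineurin, a receptor in PINK1-dependent mitophagy, had 29.8, 27.8, 19.6 and 31.5 CPM in GV WT and 8.32, 13.7 and 9.77 CPM in ovulated WT. Its groups did not overlap, and its log2 fold change was -1.35 (SE 0.32, edgeR adjusted p = 0.00137). Sqstm1, which encodes p62, fell by 1.52 on the log2 scale, from 14.2 to 28.4 CPM down to 4.36 to 11.3 CPM.

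Of the mitophagy genes, 2 rose, 1 fell and Pink1 did not pass. Fundc1, a receptor of the outer mitochondrial membrane (chromosome X, 17519967 to 17572329), had 9.01, 8.43, 10.7 and 7.54 CPM in GV WT and 31.3, 14.9 and 31.4 CPM in ovulated WT. All ovulated libraries were above the GV range, with a rise of 1.53 on the log2 scale (SE 0.31, edgeR adjusted p = 0.000492). Bnip3 had 57.8, 48.3, 53.9 and 50.1 CPM in GV WT and 145, 56 and 122 CPM in ovulated WT. Replicate 2 of the ovulated WT libraries lay inside the GV range, and the rise of 1.03 (SE 0.31, edgeR adjusted p = 0.00767) lost its call without ovulated WT replicate 1 (0.76, adjusted p = 0.0554).

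Bnip3l, the paralog of Bnip3 that encodes NIX (chromosome 14, 66985238 to 67008877), moved opposite to it. It had 202, 306, 228 and 380 CPM in GV WT and 99.7, 77 and 147 CPM in ovulated WT. The groups did not overlap, and it fell by 1.37 on the log2 scale (SE 0.31, edgeR adjusted p = 0.0011).

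The lysosomal membrane proteins parted as well. Lamp1 (chromosome 8, 13159161 to 13175338) had 385, 212, 278 and 419 CPM in GV WT and 94.2, 102 and 112 CPM in ovulated WT. It was lower in every ovulated library, with a log2 fold change of -1.66 (standard error 0.31, edgeR adjusted p = 0.00026). Lamp2, whose splice form LAMP2A serves chaperone-mediated autophagy, rose by 0.76 from a mean of 8.14 CPM in GV WT. Its call was lost without GV WT replicate 1 (edgeR adjusted p = 0.0568) or ovulated WT replicate 3 (0.103).

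**Figure D3:**
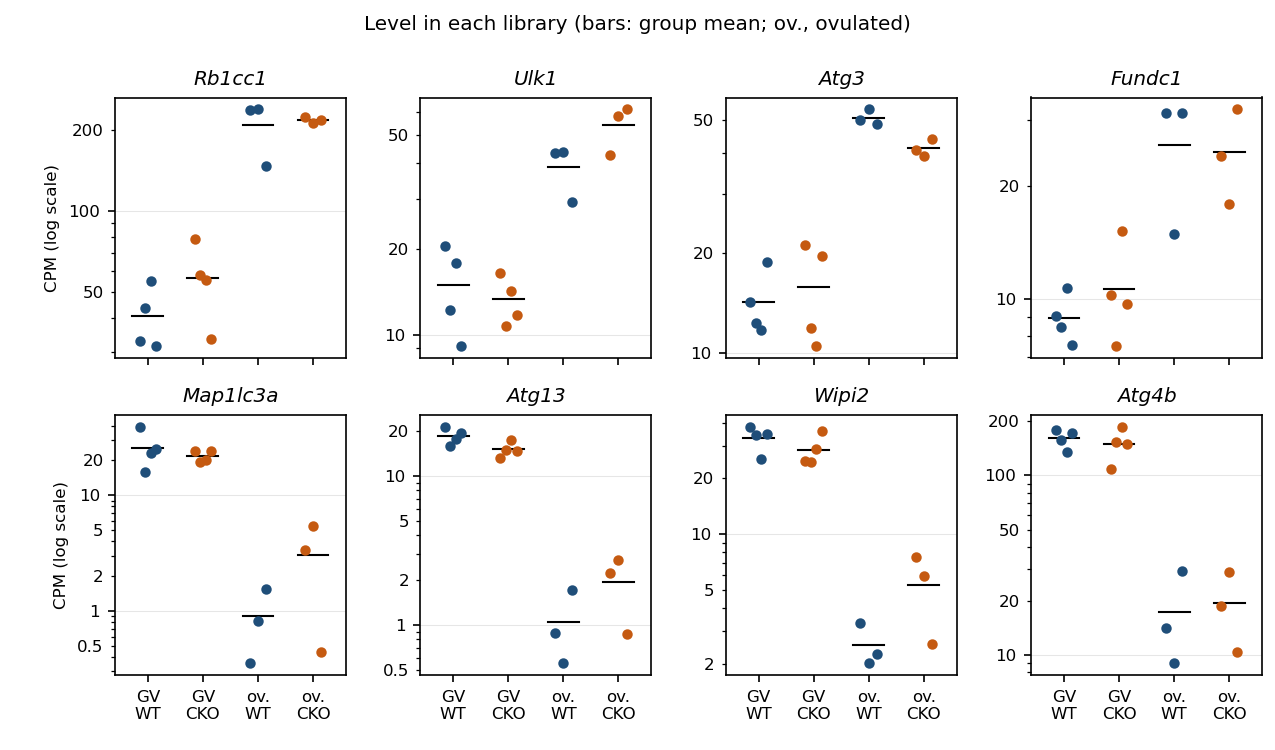
CPM on a log axis in each of the 14 libraries for 4 members that rose (Rb1cc1, Ulk1, Atg3, Fundc1) and 4 that fell (Map1lc3a, Atg13, Wipi2, Atg4b) between stages, with a bar for the group mean and WT in blue, CKO in orange. GV and ovulated libraries do not overlap within either genotype, and in Map1lc3a the ovulated CKO libraries spread from 0.438 to 5.43 CPM.

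The same stage comparison in CKO asked whether these mRNAs also differed between stages when Clpx had been deleted. It used 7 other libraries, so it shares no sample with the WT comparison, although both were fitted with 1 estimate of the spread. In CKO, 27 of the 36 members passed edgeR's test, 12 higher and 15 lower in ovulated oocytes. Among all 13158 genes, 25.8 percent were higher, 29.9 percent lower and 55.7 percent changed in either direction, against 75 percent of the members. There were 26 members called the same way in both genotypes, 12 higher and 14 lower, and 0 in opposite directions. They were 86.7 percent of the calls in WT and 96.3 percent of those in CKO. Over all genes 49.7 percent were called the same way in both, which was 78 percent of the calls in WT and 89.1 percent of those in CKO. Across the 36 members the log2 fold changes of the genotypes had a Pearson r of 0.946, a description over genes of unequal depth, beside 0.872 over all genes.

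By role the counts in CKO were close to those in WT. The ULK1 complex again had 3 higher and 2 lower. Rb1cc1 had 78.5, 57.6, 55.4 and 33.5 CPM in GV CKO and 222, 212 and 218 CPM in ovulated CKO, a rise of 1.95 on the log2 scale (SE 0.29, edgeR adjusted p = 4.59e-05). Ulk1 had 16.5, 10.8, 14.3 and 11.8 CPM in GV CKO and 42.7, 58.5 and 61.5 CPM in ovulated CKO, a rise of 2.02 (SE 0.29, edgeR adjusted p = 3.79e-05). Neither gene had overlapping groups. Atg13 had 13.2, 14.9, 17.4 and 14.7 CPM in GV CKO and 2.23, 2.74 and 0.875 CPM in ovulated CKO, a 7.7-fold fall. Atg101 had 57.6, 29.5, 19.4 and 50.8 CPM and then 17.8, 17.4 and 14.9 CPM, and its fall of -1.24 (edgeR adjusted p = 0.00566) did not pass under scaling to total counts (adjusted p = 0.179).

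In the next roles Becn1, Wipi1, Atg2b, Atg3 and Atg16l1 rose in CKO and Pik3c3, Wipi2, Atg4b, Atg7 and Atg12 fell. Scaled to total counts, Atg7 (-0.85, edgeR adjusted p = 0.0683) and Atg12 (-0.23, 0.427) did not pass. Atg12 also did not pass without GV CKO replicate 2 (-0.69, edgeR adjusted p = 0.0755) or replicate 4 (-0.60, 0.0822). Becn1 had 35.2, 31.1, 22.4 and 45.2 CPM in GV CKO and 77.5, 67.9 and 105 CPM in ovulated CKO. Atg2b had 14, 9.21, 11 and 6.08 CPM and then 29, 30.2 and 30.1 CPM, a rise of 1.56 on the log2 scale (SE 0.33, edgeR adjusted p = 0.0009). Both genes lacked any overlap between the stages here. Atg3 had 21.1, 11.9, 10.5 and 19.6 CPM in GV CKO and 40.8, 39 and 43.9 CPM in ovulated CKO. Atg16l1 had 80.4, 71.9, 85.6 and 158 CPM and then 190, 265 and 250 CPM. The GV library at 158 CPM was far above the other GV CKO libraries and still below the ovulated ones.

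Atg4b had 109, 153, 187 and 150 CPM in GV CKO and 18.8, 29.1 and 10.4 CPM in ovulated CKO, a 7.7-fold fall (log2 fold change -2.95, SE 0.41, edgeR adjusted p = 2.8e-05). Wipi2 had 24.9, 24.5, 28.9 and 36.1 CPM in GV CKO and 7.5, 5.95 and 2.56 CPM in ovulated CKO, a 5.35-fold fall (log2 fold change -2.42, SE 0.34, edgeR adjusted p = 3.7e-05). The stages did not overlap for either gene. Atg2a, which fell in WT, had 16.8, 11.3, 8.19 and 8.51 CPM in GV CKO and 4.9, 10.2 and 1.55 CPM in ovulated CKO, with overlap, and did not pass (edgeR adjusted p = 0.124). Without ovulated CKO replicate 2 it passed (-1.81, adjusted p = 0.0205).

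All 4 ATG8 genes tested were lower in ovulated CKO under the scaling used for the main test. Map1lc3a had 23.9, 19.3, 20.3 and 23.9 CPM in GV CKO and 3.35, 5.43 and 0.438 CPM in ovulated CKO, a 7.08-fold fall (log2 fold change -2.82, SE 0.60, edgeR adjusted p = 0.000866). The log2 fold change was -2.32 without ovulated CKO replicate 3 and -3.55 without ovulated CKO replicate 2. Map1lc3b had 73.8, 92.2, 105 and 90.7 CPM and then 45.2, 46.8 and 41.5 CPM. Gabarap had 7.4, 5.89, 5.55 and 4.03 CPM and then 1.98, 2.22 and 0.404 CPM. In each of these the ovulated libraries lay below all GV libraries.

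Gabarapl2 had 57.6, 52.8, 48.9 and 51.4 CPM in GV CKO and 23.8, 18.9 and 25.9 CPM in ovulated CKO, without overlap (log2 fold change -1.20, SE 0.29, edgeR adjusted p = 0.0021). Scaled to total counts, the stage changes of Map1lc3b (-0.44, edgeR adjusted p = 0.237), Gabarap (-1.28, 0.0804) and Gabarapl2 (-0.62, 0.132) in CKO kept their sign and did not pass.

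Among receptors, Tax1bp1 and Nbr1 rose in CKO and Optn and Sqstm1 fell. Optn had 30.2, 20.9, 15.8 and 35.9 CPM in GV CKO and 9.27, 9.26 and 6.23 CPM in ovulated CKO, a log2 fold change of -1.64 (standard error 0.32, edgeR adjusted p = 0.000451). The fall of Sqstm1 (-1.31) did not pass without GV CKO replicate 4 (-0.66, edgeR adjusted p = 0.141), the library in which it was highest at 39.5 CPM. It also did not pass without ovulated CKO replicate 1 (-1.19, edgeR adjusted p = 0.0566) or scaled to total counts (-0.62, 0.234).

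Fundc1 had 10.3, 7.52, 15.2 and 9.72 CPM in GV CKO and 24.1, 17.9 and 32.1 CPM in ovulated CKO. Bnip3 had 40.8, 41.7, 57.5 and 41.2 CPM and then 91.2, 52.4 and 121 CPM. Bnip3l had 286, 466, 245 and 433 CPM and then 125, 123 and 102 CPM. Fundc1 and Bnip3l were separated by stage, and Bnip3 was not. The rise of Bnip3 (0.96) did not pass without ovulated CKO replicate 3 (0.65, edgeR adjusted p = 0.0951).

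Lamp1 had 323, 387, 308 and 616 CPM in GV CKO and 155, 188 and 107 CPM in ovulated CKO, lower in every ovulated library. Lamp2 had a log2 fold change of 0.63 and did not pass (edgeR adjusted p = 0.0596), although DESeq2 (adjusted p = 0.0272) and limma-voom (0.0481) called it. Atg10, Atg2a, Lamp2 and Pik3r4 passed in WT and not in CKO, and Gabarapl2 in CKO and not in WT. None of these differences between genotypes passed its own test, which is given below.

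Scaling to total counts moved the median log2 fold change of all genes by 0.339 in the WT stage comparison, 0.59 in the CKO stage comparison, 0.25 in the stage difference and -0.164 in the GV genotype comparison. With that scaling the split of member calls was 16 higher and 14 lower in WT and 14 higher and 8 lower in CKO. Atg14 gained a call as higher in both genotypes (0.67 in WT and 0.94 in CKO), and Atg5 in WT (0.52). In CKO it also moved the size of changes that passed, such as Atg3 from 1.39 to 2.00 and Optn from -1.64 to -0.98. For all genes the share of higher among called genes went from 46.6 to 56 percent in WT and from 46.3 to 67.5 percent in CKO. For the members it went from 46.7 to 53.3 percent in WT and from 44.4 to 63.6 percent in CKO. Of the members called in WT or CKO, none turned sign under any scaling or other alternative that called it.

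The summed levels of markers of other cells were higher in ovulated libraries, mostly through 1 gene per list. Of 14 granulosa and cumulus markers, 12 were listed in each table. They summed to 23.5 to 58.4 CPM, scaled to total counts, in the GV libraries and 66.8 to 121 CPM in the ovulated libraries. Cyp19a1 made up most of both sums, and from 7 to 10 of the 12 had a group mean under 1 CPM, up to 4 of them at 0 in every library of a group. The theca, stromal, endothelial and blood markers summed to 18.3 to 47.8 CPM in GV and 61.9 to 113 CPM in ovulated libraries, most of it Pecam1. All 10 of these markers were listed in the GV table and 6 in the ovulated table, and 9 and 4 of them had a group mean under 1 CPM. Marker by marker, of 9 granulosa and cumulus markers tested, 3 were higher and 0 lower in ovulated WT (median log2 fold change 0.73). In ovulated CKO, 2 of them were higher and 2 lower (median -1.57). The 3 theca, stromal, endothelial and blood markers tested all had positive changes in both genotypes. Of these, 2 were called higher in WT (median 1.44) and 1 in CKO (median 0.97), and 0 lower. The part of other cells in the stage changes was not tested.

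The cytoplasmic polyadenylation element was compared with the stage calls as a description. In WT it was present in 4 of the 14 members that rose (28.6 percent) and in 1 of the 16 that fell (6.25 percent). Of the 6 members that did not pass, 0 had it. Over all genes with an annotated 3′ end, 1102 of 3791 that rose (29.1 percent), 452 of 4048 that fell (11.2 percent) and 885 of 4459 that did not pass (19.8 percent) had it. In CKO it was present in 3 of 12 members that rose and 1 of 15 that fell, against 30.2 and 11.4 percent over all genes. Of 9 members that did not pass in CKO, 1 had it (11.1 percent), against 19 percent over all genes. The members' share was near that of all genes among those that rose in WT and lower in the other classes. These shares rest on few genes, so no difference was read from them.

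**Figure D4:**
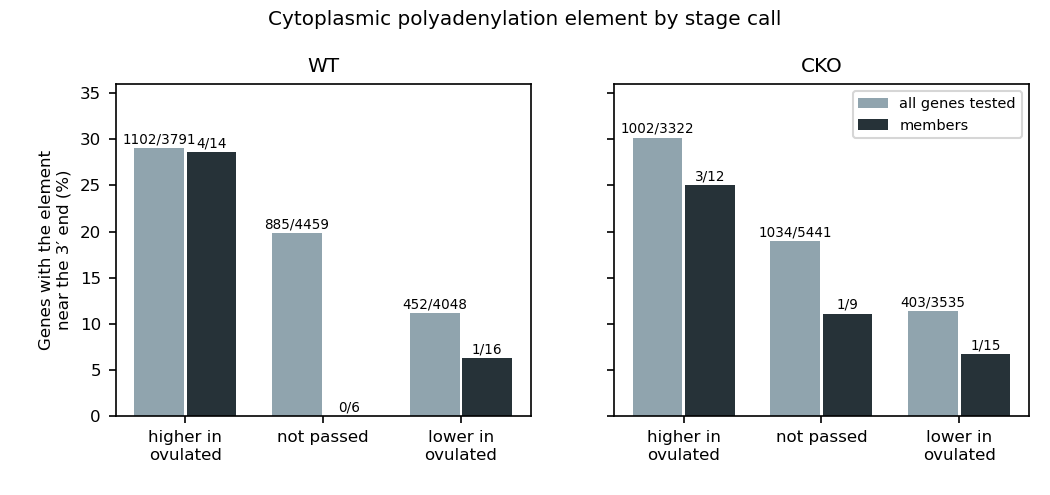
Percent of genes with the cytoplasmic polyadenylation element in the last 100 bases of the transcript, for all genes tested (grey) and the members (black), by stage call in WT (left) and CKO (right), with the number of genes above each bar. In WT the share is 29.1 percent of all genes that rose and 11.2 percent of those that fell, and 28.6 and 6.25 percent of the members.

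The central comparison asked whether deletion of Clpx changed these mRNAs. In GV oocytes, 0 of 36 members passed edgeR's test, with 0 members at an unadjusted p under 0.05 and 0 called by DESeq2 or limma-voom. Among all 12265 genes tested, 0.0245 percent were called, which is 3 genes, beside 39 with DESeq2. The members' log2 fold changes lay between -0.63 and 0.51, with a median of -0.04 beside 0.02 for all genes. The 95 percent interval lay within a 2-fold change either way for 31 of the 36 members, so larger differences are outside the interval for most of them.

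The 3 members with the smallest p in GV did not pass. Wipi1 had 1.35, 1.7, 1.68 and 1.56 CPM in WT and 0.888, 0.742, 1.47 and 0.939 CPM in CKO, where replicate 3 lay within the WT range. Its log2 fold change was -0.63 (95 percent interval -1.32 to 0.06, edgeR adjusted p = 0.834). Gabarapl2, at 0.29 (-0.06 to 0.64, edgeR adjusted p = 0.836), had 3 of 4 CKO libraries above the WT range. Rb1cc1, at 0.45 (-0.10 to 1.00, edgeR adjusted p = 0.836), had overlapping groups.

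By role, the GV genotype intervals of genes at the centre of each step all included 0. Ulk1 had -0.18 (95 percent interval -0.77 to 0.41), Becn1 -0.28 (-0.82 to 0.26), Atg5 0.21 (-0.26 to 0.67) and Map1lc3b -0.12 (-0.50 to 0.26). Sqstm1 had -0.03 (-0.83 to 0.78). Of the mitophagy genes, Bnip3 had -0.22 (-0.61 to 0.16), Bnip3l 0.36 (-0.22 to 0.95), Fundc1 0.25 (-0.30 to 0.80) and Pink1 0.51 (-0.48 to 1.51). Only for Pink1 among these does the interval reach past 2-fold.

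In ovulated oocytes, too, 0 of 36 members passed edgeR's test between genotypes, with 0 at an unadjusted p under 0.05 and 0 called by DESeq2 or limma-voom. Of all 12044 genes tested, 0.0083 percent were called, which is 1 gene. That background rose to 201 genes without ovulated CKO replicate 3, to 101 with DESeq2 and to 64 in the fit of all 14 libraries, with 0 members in each. The estimates were wider here, with 3 libraries a group: the 95 percent interval lay within a 2-fold change for 16 of 36 members. The median log2 fold change of the members was 0.03 beside -0.00 for all genes.

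The smallest p-values belonged to Wipi2, Map1lc3a and Lamp1, in each of which CKO replicate 3 stood nearer to WT than the other CKO libraries. Wipi2 had 3.33, 2.01 and 2.26 CPM in WT and 7.5, 5.95 and 2.56 CPM in CKO, a log2 fold change of 1.04 (95 percent interval -0.04 to 2.12, edgeR adjusted p = 0.659). Map1lc3a, with the values given above, had 1.71 (-0.13 to 3.55, edgeR adjusted p = 0.674). Lamp1 had 1 CKO library, at 107 CPM, inside the WT range and 2 above it, and a log2 fold change of 0.52 (-0.07 to 1.11, edgeR adjusted p = 0.689). Without CKO replicate 3 these were 1.30, 2.17 and 0.64, and the edgeR adjusted p-values, 0.243, 0.166 and 0.344, did not pass. Over all 6 leave-one-out fits the estimate ran from 0.76 to 1.30 for Wipi2, from 1.00 to 2.28 for Map1lc3a and from 0.33 to 0.64 for Lamp1, lowest for Map1lc3a and Lamp1 without CKO replicate 2.

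Of the mitophagy genes in ovulated oocytes, Bnip3 had -0.29 (95 percent interval -1.17 to 0.59), Bnip3l 0.10 (-0.53 to 0.73) and Fundc1 -0.07 (-0.89 to 0.75). Pink1 had -0.79 (-3.44 to 1.87), the widest of these intervals. Each of them includes 0 and leaves the direction unknown. Gabarapl2 had -0.70 (-1.53 to 0.12) and Map1lc3b 0.02 (-0.61 to 0.66).

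**Figure D5:**
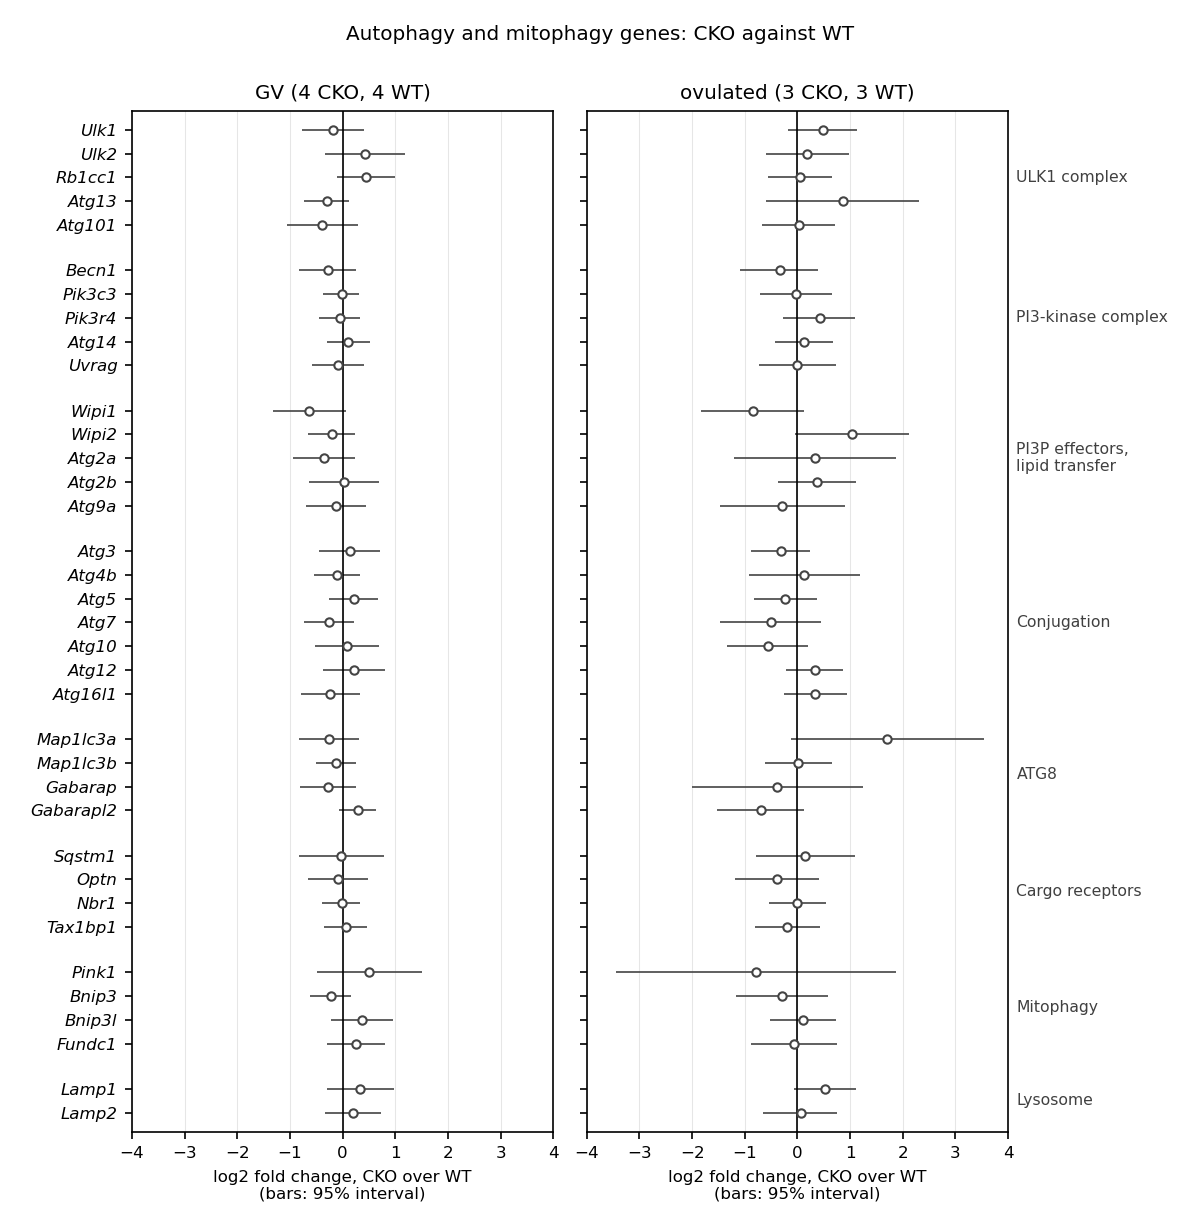
Log2 fold change of CKO over WT with 95 percent intervals for the 36 members tested, by role, in GV (left, 4 against 4 libraries) and ovulated oocytes (right, 3 against 3 libraries). No member passed the test at either stage, and the intervals are wider in ovulated oocytes, where Map1lc3a has the highest estimate, 1.71.

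Whether the CKO effect differed between stages was tested as an interaction in the fit of all 14 libraries. No member passed, 0 of 36 in edgeR and 0 in DESeq2 and limma-voom, against 0.0076 percent of all 13158 genes in edgeR. At an unadjusted p under 0.05 there were 4 members, Wipi2, Map1lc3a, Gabarapl2 and Atg13. The share of all genes under that unadjusted threshold is not given here, so whether 4 members exceed the background cannot be told. The ovulated minus GV difference in the log2 fold change was 1.28 for Wipi2 (edgeR adjusted p = 0.389), 2.00 for Map1lc3a (0.465), -0.99 for Gabarapl2 (0.465) and 1.19 for Atg13 (0.519). Without ovulated CKO replicate 3, Map1lc3a (2.51, adjusted p = 0.0222) and Wipi2 (1.61, 0.0228) passed, in a fit where 498 of all genes did. Other single libraries also moved the estimate for Map1lc3a: it was 1.28 (edgeR adjusted p = 0.919) without ovulated CKO replicate 2, 1.62 (0.598) without ovulated WT replicate 1 and 2.59 (0.32) without ovulated WT replicate 3. For Wipi2 it was lowest, 0.99 (edgeR adjusted p = 0.782), without ovulated CKO replicate 1.

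The other genes of the pathway were described from 4 further lists. Their shares called are to be read against 63.7 percent of all genes in WT and 55.7 percent in CKO. Of 27 other autophagy genes tested, 8 were higher and 9 lower in ovulated WT, and 7 higher and 9 lower in CKO, which is 63 and 59.3 percent called. In WT, Wdfy3, an adaptor for aggregate clearance, rose by 1.57 on the log2 scale and Vmp1, a scramblase of autophagosome formation, fell by 2.60. Of 16 other mitophagy genes, 4 were higher and 8 lower in WT, and 4 and 6 in CKO (75 and 62.5 percent called). Usp15, a deubiquitinase that opposes parkin, rose by 1.34 and Mul1, a mitochondrial ubiquitin ligase, fell by 4.51 in WT.

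Of 20 lysosomal hydrolases and regulators, 4 were higher and 9 lower in WT, and 4 and 6 in CKO (65 and 50 percent called). Npc1, the lysosomal cholesterol exporter, rose by 1.80 and Ctsb, a cysteine protease, fell by 3.48 on the log2 scale in WT. Of 16 subunits of the V-ATPase, the proton pump of the lysosome, 3 were higher and 7 lower in WT, and 2 and 6 in CKO (62.5 and 50 percent called). Atp6v1a rose by 1.22 and Atp6v0c fell by 4.67 in WT. In the genotype comparisons, no gene of these 4 lists passed edgeR's test at either stage.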

How the data were processed

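RNA of mouse oocytes was copied and amplified with SMART-Seq2, per the labels' protocols. Per the submitters' processing notes the genome build is mm10. The aligner, the counter and the annotation are not given in the sources used here. The authors deposited, per stage, a table headed as read counts, read here to hold expected counts because some values are fractional, and a table of FPKM, counts scaled to gene length and library size per the file headers. Expected counts were rounded. Groups came from the labels. Genotypes were compared within a stage. Stages, and the stage difference of the CKO effect, were compared in 1 fit of 14 libraries on genes in both tables. The test was edgeR 4.0.16 (robust quasi-likelihood F-test after TMM scaling, with genes kept by filterByExpr at a count of 10 or more, and Benjamini-Hochberg adjustment over all genes at a threshold of 0.05) in R 4.3.3. Alternatives used other scalings, no low-count filter, DESeq2 1.42.0, limma 3.58.1 (voom), a replicate block, other sets of libraries in the fit, and each library left out. The edgeR script was tested on simulated data. Printed CPM use the TMM scale of all 14 libraries, except the marker values and the limit for a count of 0, which use total counts.

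Gene positions came from RefSeq on GRCm38, and all 38 genes matched by ID. The 3′ ends came from GENCODE transcripts of that build. The end of 1 further member is not reported here. The members and lists were chosen with earlier results of these data known. Values in every library are given for up to 6 members per direction that passed with at least 10 CPM in a group, for the 3 smallest p-values where fewer than 3 passed, for the ATG8 and mitophagy genes, and for the member with the highest FPKM of each role in GV WT. Other lists name up to 2 genes per direction. Other genes named with estimates or ranges were chosen to cover each role.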

Additional observations from a re-analysis of the deposited data

Results flagged for a closer look

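In each of the 72 groups of 4 GV libraries, the highest and lowest library were compared with the rest, and 4 stood apart. Chance sets apart about 1 in 20 such groups. Atg14 had 46.9 CPM in GV WT replicate 3, where the other 3 libraries had 59.2 to 61.4 CPM. Atg10 had 3.92 CPM in GV CKO replicate 4, against 7.94 to 8.75 CPM in the others. Atg16l1 had 158 CPM in the same library, against 71.9 to 85.6 CPM. Bnip3 had 57.5 CPM in GV CKO replicate 3, against 40.8 to 41.7 CPM. Why these libraries stood apart was not tested.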

How the results depend on the processing

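Of 77 recomputed counts of members called, 76 were within 1.5 times the value reported. The exception was the stage difference of the CKO effect, with 0 members as reported and 0 to 2 members in the leave-one-out fits; the 2 came without ovulated CKO replicate 3. Between genotypes, 0 members were called at either stage under every alternative run. Over the alternatives, 27 to 30 members were called between stages in WT, 25 of them under every one, and 22 to 29 in CKO, 19 of them under every one. A further 483 recomputed values covered only the members with the largest changes between stages, or the smallest p in the other comparisons. Of these, 478 kept their direction and side of the threshold, 3 lost the call, all of them Atg2a, 2 gained one, and none changed sign. Other members, such as Bnip3 in both genotypes and Atg16l1 in WT, are outside this count and lost calls under some alternatives, as given above. With a replicate block, 29 members passed between stages in WT, 27 in CKO and 0 in the other comparisons. With the block Lamp2 in WT (0.64, edgeR adjusted p = 0.0578) and Sqstm1 in CKO (-0.98, 0.0636) did not pass and Pik3r4 in CKO did (-0.68, 0.0388). Deviations of same-numbered libraries correlated at -0.309 (number 1) and 0.282 to 0.672 in GV and at -0.311 (number 1) and 0.107 to 0.505 in ovulated oocytes. Since number 1 goes the other way, not every library was closest to its own number, and the numbers were not taken to pair the samples. Depth limits Tfeb, Gabarapl1 and Pink1, and 3 libraries a group limit the ovulated genotype comparison.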
